A study of Drosophila melanogaster with 15 samples.

Results

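Eye discs of Drosophila melanogaster larvae that expressed the Yap protein of the choanoflagellate Monosiga joined to a human domain (Monosiga Yap-TBD) were compared with control discs that expressed eGFP alone, in 6 of the 15 RNA sequencing libraries of the study. Each group had 3 libraries, taken from the deposited table by their labels. A gene was tested when it reached 1 FPKM (fragments per kilobase of transcript, scaled to the total of each library) in at least 3 of the 15 libraries, which held for 9213 of the 14671 genes in the table. The Monosiga Yap-TBD genotype was GMR-Gal4 with UAS-eGFP and UAS-MonosigaYAP+HumanTBD, and the control genotype was GMR-Gal4 with UAS-eGFP. The labels give the addition as HumanTBD in the genotype, and as human TEAD in the sample description. It is taken here as the part of a human protein that binds TEAD factors. The eyes of the Monosiga Yap-TBD group are labelled with differentiation defects and strong ectopic proliferation, and those of the control group as normal.

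All groups of the study shared the GMR-Gal4 driver, which is active in the cells behind the morphogenetic furrow of the eye disc, and the eGFP reporter. The GFP-positive domain was cut out by hand from 25 to 30 third-instar discs per library. RNA was extracted in triplicate for each genotype. Whether the triplicates came from separate crosses is not given in the sources used here, so the p-values measure only the spread between these samples, which may be technical. Insertion sites, the number of transgenic lines and the sex of the larvae are also not given. Where the other constructs are used for comparison, they are Monosiga Yap without the added domain (differentiation defects), Drosophila Yki S168A (the same with a middle degree of ectopic proliferation) and Trichoplax Yap S81A, the Yap protein of a placozoan with 1 substitution (strong ectopic proliferation), again with 3 libraries each.

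Yki, the fly member of the Yap family, is the transcriptional coactivator at the end of the Hippo pathway, in which the kinase Hippo activates the kinase Warts, and Warts phosphorylates Yki and keeps it out of the nucleus. Yki does not bind DNA itself and is brought to its target genes by partners such as the TEAD protein Scalloped. In imaginal discs its known targets include growth and survival genes and several upstream components of the pathway itself, which form a negative feedback loop. In the third-instar eye disc, cells behind the furrow normally differentiate in sequence as photoreceptors, cone cells and pigment cells. Cells not yet recruited pass through a last synchronous division before they leave the cell cycle.

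The depth estimated from the deposited values lay between 12080000 and 16750000 fragments in the 6 libraries. At the lowest depth a level of 1 FPKM stands for about 24.2 fragments per 2000 bases of transcript. Correlations of log2 values were 0.944 to 0.966 between libraries of the same group and 0.903 to 0.920 between the Monosiga Yap-TBD and control libraries. Markers of the posterior eye were present in both groups. Of the defining markers of other tissues, the muscle genes Mhc and twi, the fat body gene Lsp1alpha and the antennal gene Dll were at or near 0 FPKM in both. Other members of their lists were expressed, so these genes do not show that the tissues were absent. Muscle markers summed to 103 to 126 FPKM with Monosiga Yap-TBD and 122 to 156 FPKM in the control. For fat body markers the sums were 15.7 to 21.7 FPKM and 22.8 to 26.2 FPKM, and for brain markers 32.1 to 38.3 FPKM and 21.8 to 34.15 FPKM. Summed over their lists, hemocyte markers reached 188 to 335 FPKM with Monosiga Yap-TBD and 572 to 779 FPKM in the control, glia markers 376 to 393 FPKM with Monosiga Yap-TBD and 421 to 556 FPKM in the control, antenna markers 214 to 312 FPKM with Monosiga Yap-TBD and 317 to 359 FPKM in the control, and trachea markers 1529 to 1671 FPKM with Monosiga Yap-TBD and 1113 to 1285 FPKM in the control. Called members of these lists were 4 lower of 15 for hemocytes, 6 lower of 15 for glia, 6 lower of 10 for the antenna and 3 higher of 6 for trachea. They were 3 lower of 12 for muscle, 1 lower of 10 for fat body, and 1 higher and 2 lower of 5 for brain. Brain genes were 2 higher and 1 lower with array weights, a fit described below. Their falls were also 1 without any 1 of the Monosiga Yap-TBD libraries or control replicate 2 or 3. Over all genes tested 12.6% were called higher and 12.0% lower. Several members are also expressed by the eye disc itself, and the part of other tissues in the results was not tested. In bulk tissue, fewer cells of a type and less RNA per cell cannot be told apart. The fly gene yki (2R 19953498 to 19956008, dm3), which the labelled construct does not contain, stood at 77.5, 70.5 and 66.8 FPKM in the Monosiga Yap-TBD libraries, against 86.2, 89.0 and 80.0 FPKM in the control libraries. The groups did not overlap, and the difference did not pass the test (log2 difference -0.25 ± 0.17 (SE), limma adjusted p = 0.331).

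Of the 9213 genes, 2264 (24.6%) were called at a limma adjusted p under 0.05, of which 1161 (12.6%) were higher and 1103 (12.0%) lower with Monosiga Yap-TBD. The counts of called list members against the control below are to be read beside these shares of 12.6% and 12.0%. The median log2 difference over all genes tested was 0.01. Among called genes, 392 (4.25%) had a mean FPKM at least 2-fold higher and 676 (7.34%) at least 2-fold lower. The libraries of both groups did not overlap at 3988 genes (43.3%). An alternative fit with array weights, in which limma weights each library by its spread, called 4014 genes, and counts from it stand beside the list counts above 0 that it moved by over 1.5 times. Log2 differences are on the scale of log2(FPKM + 1), which understates the change of genes near 0, and folds are ratios of mean FPKM. Cpr97Eb, a cuticle protein gene, had the largest log2 difference among the genes called higher, at 7.12. Among the largest falls were ana, which encodes a secreted glial glycoprotein, at -4.42, and sev, a photoreceptor gene, at -3.48. Genes named without further comment were taken by rule from gene lists, and the others are marked as chosen after their values were seen. Apart from the first tested entries of each list, this rule took only genes whose Monosiga Yap-TBD and control libraries did not overlap. For such genes, statements below and in the figures that both groups were apart follow from the choice and add no support. They are to be read beside the 43.3% of all genes given above. Strand use in the authors' counting is not stated, so reads of overlapping genes cannot be told apart. Of the genes named below, awd, boi, borr, Buffy, CG14059, CG4221, cher, cv-c, CycA, dally, dan, DNApol-alpha50, EcR, elav, ex, Fhos, GstD1, hbs, Hml, ImpE3, kat-60L1, kirre, magu, Mcm10, Mcm3, mew, ncd, neur, nop5, Nrt, pit, pk, Pxn, Rbp9, rdx, repo, Ret, ro, rst, ru, sd, shf, smo, sn, so, Surf6, svp, Tdc2, thr, Timp, Traf4, Ts and Tsp overlap another gene on the same or the opposite strand.

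**Figure D1:**
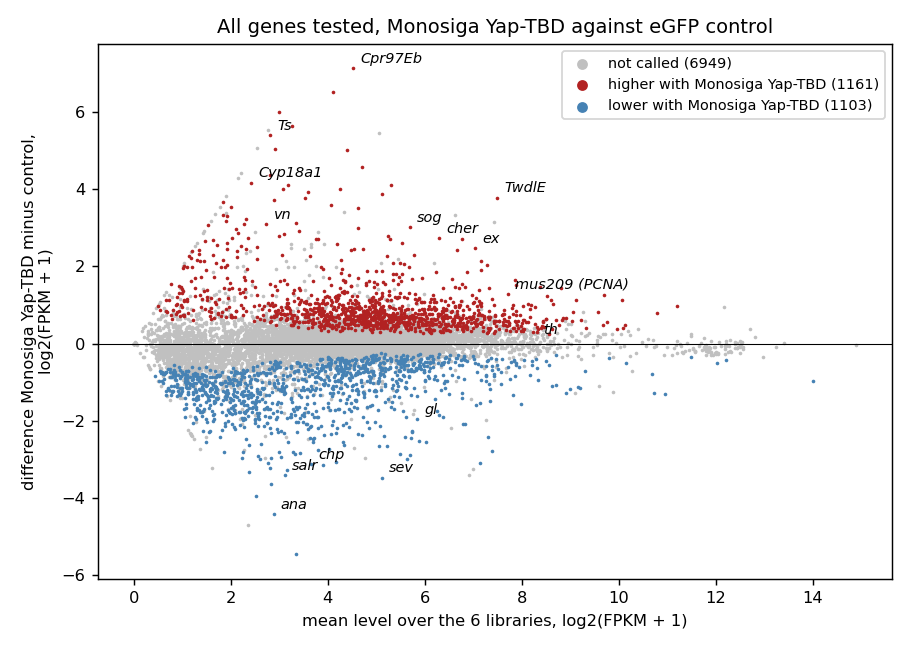
Difference between Monosiga Yap-TBD and eGFP control (vertical axis, log2(FPKM + 1)) against the mean level over the 6 libraries (horizontal axis, the same scale) for the 9213 genes tested. Red points are the 1161 genes called higher with Monosiga Yap-TBD and blue points the 1103 called lower; named genes are those the text describes, and th lies near the line at 0.

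Genes known to respond to Yki in fly discs rose with Monosiga Yap-TBD. Of the 15 on the list, 10 rose and 0 fell, beside 12.6% and 12.0% of all genes, and their median log2 difference was 1.04, beside 0.01 over all genes. The members were chosen for their known response to Yki, with earlier results of these data known. Expanded (ex; 2L 431253 to 448701), a FERM-domain protein upstream of Hippo, stood at 341, 269.6 and 316 FPKM in the Monosiga Yap-TBD libraries, against 57.0, 53.6 and 53.1 FPKM in the control libraries. Its lowest Monosiga Yap-TBD library was far above its highest control library (log2 difference 2.47 ± 0.15 (SE), limma adjusted p = 5.54e-08). Vein (vn; 3L 5806438 to 5838764), a neuregulin-like ligand of the EGF receptor, had the largest difference of the list. It stood at 19.4, 19.4 and 16.5 FPKM in the Monosiga Yap-TBD libraries, against 1.34, 1.10 and 1.38 FPKM in the control libraries (14.5-fold, log2 difference 3.10 ± 0.22 (SE), limma adjusted p = 2.51e-07).

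The gene kibra (CG33967; 3R 10524252 to 10549978) encodes a WW-domain protein that works with Expanded and Merlin. It stood at 82.4, 71.0 and 81.1 FPKM in the Monosiga Yap-TBD libraries, against 20.5, 21.4 and 22.6 FPKM in the control libraries (log2 difference 1.81 ± 0.18 (SE), limma adjusted p = 5.07e-06). Cyclin E (CycE; 2L 15727762 to 15748155), which drives entry into S phase, stood at 37.0, 38.6 and 34.0 FPKM in the Monosiga Yap-TBD libraries, against 12.9, 11.4 and 12.5 FPKM in the control libraries (log2 difference 1.50 ± 0.18 (SE), limma adjusted p = 3.91e-05). For both genes the groups were clearly apart, with 3.63-fold and 2.98-fold higher means. The glypicans dally and dlp, heparan sulfate proteins that shape the spread of Dpp, Wingless and Hedgehog, rose together. Dally stood at 175, 151 and 188 FPKM in the Monosiga Yap-TBD libraries, against 62.8, 57.6 and 65.4 FPKM in the control libraries (log2 difference 1.45 ± 0.15 (SE), limma adjusted p = 8.54e-06). Dlp stood at 84.0, 80.9 and 83.9 FPKM in the Monosiga Yap-TBD libraries, against 43.0, 41.0 and 30.5 FPKM in the control libraries (dlp; log2 difference 1.11 ± 0.16 (SE), limma adjusted p = 0.000161). Control replicate 3 was the lowest library for dlp, and the groups did not overlap for either gene. The sulfatase gene Sulf1, which trims heparan sulfate outside the cell, stood at 165, 144 and 122 FPKM in the Monosiga Yap-TBD libraries, against 36.9, 32.8 and 47.7 FPKM in the control libraries (3.67-fold, limma adjusted p = 1.03e-05). Of the 14 tested glypican and heparan sulfate genes, 3 rose (dally, dlp and Sulf1) and 0 fell, with 1 fall without control replicate 2 and, with array weights, 5 rises and 2 falls.

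Four-jointed (fj), a Golgi kinase that acts on the cadherins Fat and Dachsous, stood at 85.2, 72.4 and 82.5 FPKM in the Monosiga Yap-TBD libraries, against 36.8, 37.1 and 40.9 FPKM in the control libraries (limma adjusted p = 2.33e-05). E2f, the activating E2F factor of flies, rose less, with 96.8, 90.7 and 83.0 FPKM in the Monosiga Yap-TBD libraries, against 57.1, 53.2 and 62.0 FPKM in the control libraries (log2 difference 0.64 ± 0.16 (SE), limma adjusted p = 0.00877). For both genes the groups did not overlap. Wingless (wg), the main fly Wnt ligand, and Myc (dm) rose in the test, but single libraries decided their calls. Wingless stood at 11.2, 17.1 and 7.92 FPKM in the Monosiga Yap-TBD libraries, against 4.63, 4.82 and 2.30 FPKM in the control libraries (limma adjusted p = 0.0123), and lost its call without Monosiga Yap-TBD replicate 2 or control replicate 3, with an adjusted p between 0.00306 and 0.0636 over all alternatives in limma. Myc stood at 66.9, 52.5 and 70.5 FPKM in the Monosiga Yap-TBD libraries, against 46.6, 43.2 and 51.2 FPKM in the control libraries (limma adjusted p = 0.033). Its call ended without Monosiga Yap-TBD replicate 1 or 3 or control replicate 1 or 2, with an adjusted p up to 0.118 in limma.

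The other 5 members of the list did not pass the test. The caspase inhibitor th (Diap1), a known direct Yki target in wing discs, stood at 325, 322 and 331 FPKM in the Monosiga Yap-TBD libraries, against 296, 310.4 and 299 FPKM in the control libraries (log2 difference 0.11 ± 0.08 (SE), limma adjusted p = 0.322). Its libraries did not overlap, yet its mean was only 1.08-fold that of the control. For Mer, the Merlin gene, the log2 difference was 0.21 ± 0.11 (SE; limma adjusted p = 0.175). For crb, which encodes the apical determinant Crumbs, it was 0.30 ± 0.11 (SE; limma adjusted p = 0.0637). For the Notch ligand gene Ser and for CG14059 it was 0.38 ± 0.22 and 0.23 ± 0.47 (SE; limma adjusted p = 0.239 and 0.777). The direction for CG14059 turned without Monosiga Yap-TBD replicate 3. Mer and CG14059 are given, after their values were seen, to complete the list.

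Components of the Hippo pathway went both ways. Of 24 tested, 8 rose and 4 fell, with a median log2 difference of 0.06. Among the kinases and their partners, warts (wts; 3R 26615379 to 26632341), the kinase that phosphorylates Yki, stood at 50.5, 48.0 and 53.5 FPKM in the Monosiga Yap-TBD libraries, against 17.1, 17.7 and 18.6 FPKM in the control libraries (2.84-fold, limma adjusted p = 5.37e-06). The gene of its cofactor, mats, fell and stood at 42.8, 55.1 and 39.5 FPKM with Monosiga Yap-TBD, against 78.7, 70.1 and 65.9 FPKM in the control (log2 difference -0.64 ± 0.15 (SE), limma adjusted p = 0.0075). Hippo (hpo), the kinase upstream of Warts, was chosen after its values were seen and did not pass the test, with 44.7, 45.9 and 41.2 FPKM with Monosiga Yap-TBD, against 53.8, 49.3 and 52.7 FPKM in the control (limma adjusted p = 0.193). The gene of the TEAD partner itself, scalloped (sd), stood at 126, 107 and 124 FPKM with Monosiga Yap-TBD, against 73.5, 75.2 and 86.1 FPKM in the control (log2 difference 0.60 ± 0.12 (SE), limma adjusted p = 0.00229). The libraries of wts, mats and sd were apart between the groups. The 14-3-3zeta gene, which encodes a protein that holds phosphorylated proteins in the cytoplasm and was chosen after its values were seen, rose by 0.54 ± 0.10 (SE) on the log2 scale (limma adjusted p = 0.000808).

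Several of the called genes belong to the branch of the pathway that starts at the cadherins Fat and Dachsous. Fat (ft; 2L 4198402 to 4217852), the receptor cadherin, stood at 53.4, 44.5 and 46.9 FPKM with Monosiga Yap-TBD, against 23.6, 22.9 and 25.3 FPKM in the control (limma adjusted p = 3.07e-05). Its ligand dachsous (ds) stood at 69.3, 68.5 and 70.6 FPKM with Monosiga Yap-TBD, against 41.9, 39.8 and 46.1 FPKM in the control (limma adjusted p = 0.00392). Approximated (app), a palmitoyltransferase of the same branch, stood at 34.7, 28.5 and 34.7 FPKM with Monosiga Yap-TBD, against 13.1, 17.7 and 18.8 FPKM in the control (limma adjusted p = 0.000365). The F-box gene Fbxl7 (CG4221) stood at 118, 99.6 and 132 FPKM with Monosiga Yap-TBD, against 62.1, 68.5 and 60.5 FPKM in the control (limma adjusted p = 0.00023). In all 4 genes each Monosiga Yap-TBD library was above each control library. Lowfat (lft), a cofactor of Fat and Dachsous, fell to 124, 145 and 117 FPKM with Monosiga Yap-TBD, against 244, 239 and 205 FPKM in the control (limma adjusted p = 0.000952). Zyx102EF, the zyxin gene of the fourth chromosome, fell to 63.6% of the control mean, with 55.4, 48.6 and 58.1 FPKM with Monosiga Yap-TBD, against 80.7, 85.1 and 88.9 FPKM in the control (limma adjusted p = 0.00247).

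Genes of the core planar polarity complex fell where they were called. Prickle (pk), a LIM-domain protein of the core polarity complex, stood at 20.3, 18.8 and 28.0 FPKM with Monosiga Yap-TBD, against 70.2, 66.8 and 84.0 FPKM in the control (log2 difference -1.69 ± 0.20 (SE), limma adjusted p = 2.59e-05). Starry night (stan), the seven-pass cadherin of the core complex, fell to 19.1, 18.6 and 21.7 FPKM with Monosiga Yap-TBD, against 39.1, 33.5 and 50.7 FPKM in the control (limma adjusted p = 0.00104). Over the whole planar polarity list, Fat branch included, 5 of 12 rose and 3 fell. Of 17 apicobasal polarity genes 1 rose and 2 fell, with 1 fall when control replicate 1 or 3 or any 1 of the Monosiga Yap-TBD libraries was left out, and 9 rises with array weights. The rise was at stardust (sdt), whose product binds Crumbs (log2 difference 0.63 ± 0.12 (SE), limma adjusted p = 0.00152).

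**Figure D2:**
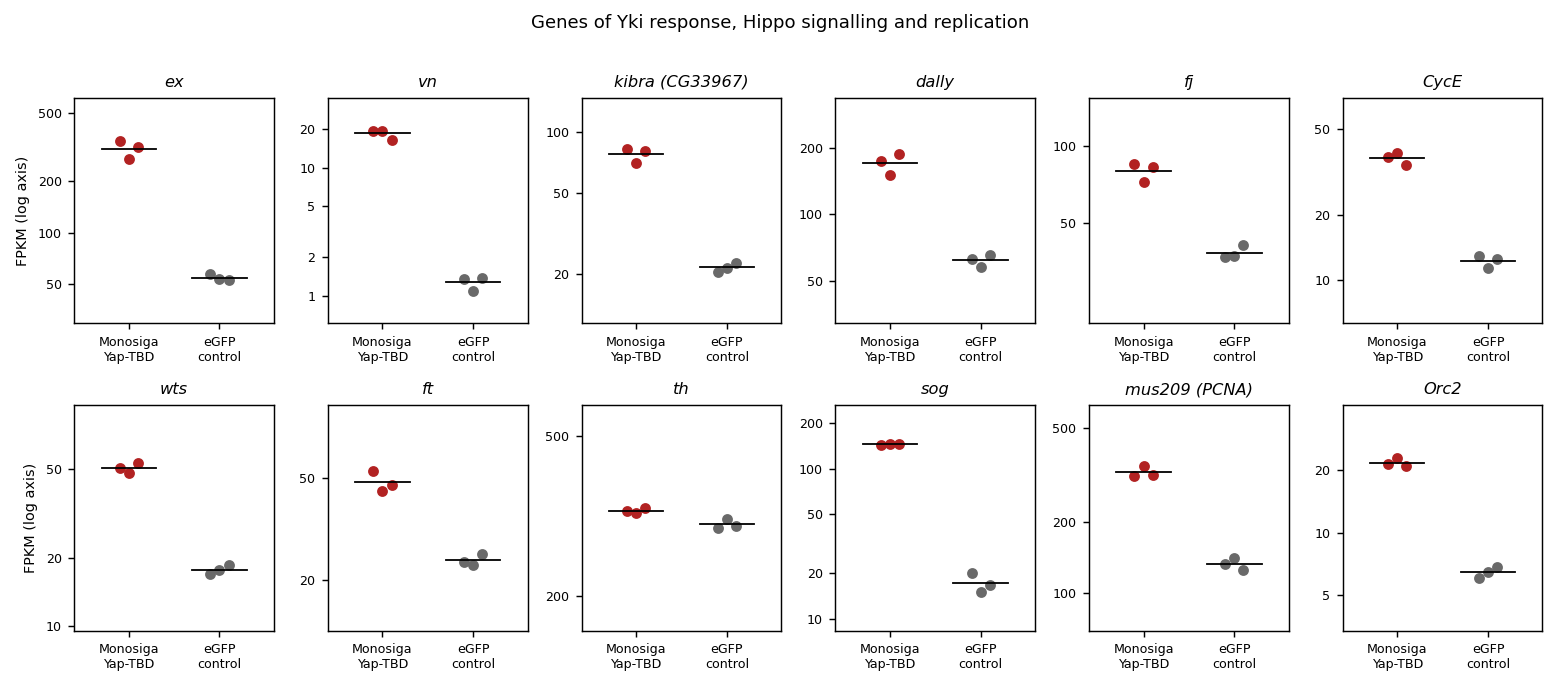
FPKM of 12 genes on log axes in the 3 Monosiga Yap-TBD libraries (red, left) and the 3 eGFP control libraries (grey, right); bars are means. In every panel the red points lie above the grey ones without overlap, and in that of th only just above, at 322 to 331 FPKM against 296 to 310.4 FPKM.

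DNA replication genes rose nearly throughout. Of 42 tested members, 37 rose and 0 fell, with a median log2 difference of 0.88. The sliding clamp gene mus209 (PCNA; 2R 16149257 to 16150362) stood at 313, 348 and 316 FPKM in the Monosiga Yap-TBD libraries, against 134, 141 and 125 FPKM in the control libraries (log2 difference 1.28 ± 0.12 (SE), limma adjusted p = 4.05e-06). Of the origin recognition complex, Orc2 stood at 21.5, 22.9 and 20.9 FPKM in the Monosiga Yap-TBD libraries, against 6.02, 6.44 and 6.83 FPKM in the control libraries (3.38-fold, limma adjusted p = 3.21e-05). The MCM genes, whose products form the replicative helicase, rose to similar degrees. Mcm2 stood at 44.1, 48.3 and 47.0 FPKM with Monosiga Yap-TBD, against 21.8, 20.8 and 24.6 FPKM in the control (limma adjusted p = 0.000176). Mcm5 rose by 1.17 ± 0.12 (SE) on the log2 scale (limma adjusted p = 7.74e-06). Of the MCM genes chosen after their values were seen, log2 differences were 0.93 for Mcm3, 0.69 for dpa (the Mcm4 gene), 0.83 for Mcm6 and 0.93 for Mcm7 (limma adjusted p = 0.00012, 0.000665, 0.000609 and 0.000156).

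The 4 subunit genes of the DNA polymerase alpha and primase complex all rose. The primase gene DNApol-alpha60 stood at 13.8, 16.5 and 14.4 FPKM with Monosiga Yap-TBD, against 4.83, 4.89 and 5.40 FPKM in the control (limma adjusted p = 0.000161). Its partner DNApol-alpha50 stood at 10.1, 12.0 and 12.9 FPKM with Monosiga Yap-TBD, against 3.67, 3.62 and 3.19 FPKM in the control (limma adjusted p = 5.98e-05). DNApol-alpha180 and DNApol-alpha73, chosen after their values were seen, rose by 0.89 ± 0.17 (SE) and 1.38 ± 0.15 (SE) on the log2 scale (limma adjusted p = 0.00134 and 1.48e-05). RPA2, a subunit of the single-strand binding complex, stood at 156, 176 and 156 FPKM in the Monosiga Yap-TBD libraries, against 53.4, 71.5 and 52.4 FPKM in the control libraries (limma adjusted p = 3.72e-06). The groups were apart for all of these genes.

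Nucleotide synthesis genes rose too, with 8 of 18 tested rising and 0 falling. The large subunit gene of ribonucleotide reductase, RnrL, stood at 69.6, 77.8 and 73.4 FPKM in the Monosiga Yap-TBD libraries, against 29.7, 32.4 and 34.7 FPKM in the control libraries (2.28-fold, limma adjusted p = 2.75e-05). The dUTPase gene, whose product keeps uracil out of DNA, stood at 541, 628 and 559 FPKM with Monosiga Yap-TBD, against 251, 288 and 244 FPKM in the control (limma adjusted p = 4.78e-06). The nucleoside diphosphate kinase gene awd was among the most abundant of the list, at 2873, 3863 and 3196 FPKM with Monosiga Yap-TBD, against 1777, 1964 and 1385 FPKM in the control (limma adjusted p = 0.000456). In each of the 3 genes the groups were apart.

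Genes of mitosis rose less evenly. Of 50 tested, 19 rose (31 with array weights) and 1 fell, with a median log2 difference of 0.42. The Aurora B kinase gene ial stood at 53.6, 73.1 and 67.2 FPKM in the Monosiga Yap-TBD libraries, against 32.8, 30.2 and 32.9 FPKM in the control libraries (limma adjusted p = 0.000676). The borealin gene borr, of the same complex, stood at 41.0, 54.6 and 41.6 FPKM with Monosiga Yap-TBD, against 24.9, 18.7 and 17.9 FPKM in the control (limma adjusted p = 0.00354). The gene thr, whose product partners separase, stood at 11.7, 12.3 and 11.8 FPKM with Monosiga Yap-TBD, against 4.84, 4.49 and 6.46 FPKM in the control (2.27-fold, limma adjusted p = 0.00159). The centromeric histone gene cid was near the lower limit of testing in the control and stood at 6.93, 7.31 and 3.69 FPKM with Monosiga Yap-TBD, against 0.604, 1.15 and 1.63 FPKM in the control (limma adjusted p = 0.000161). Incenp, pav (a kinesin of cytokinesis) and ncd (a spindle kinesin), chosen after their values were seen, rose by 0.63, 0.78 and 0.92 on the log2 scale (limma adjusted p = 0.000591, 0.00189 and 0.000509). The mitotic cyclin genes CycA and CycB3 did not pass the test, with log2 differences of 0.09 ± 0.15 and 0.21 ± 0.16 (SE; limma adjusted p = 0.737 and 0.397).

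The 1 mitotic gene that fell (2 without control replicate 3, with only the 2 groups in the fit or with array weights) was string (stg), the Cdc25 phosphatase that triggers mitosis. It stood at 57.9, 54.0 and 59.3 FPKM in the Monosiga Yap-TBD libraries, against 92.7, 80.7 and 89.6 FPKM in the control libraries (limma adjusted p = 0.00639). The gene rap (fizzy-related), an activator of the anaphase-promoting complex that keeps cells in G1, fell too, with 12.9, 12.6 and 14.3 FPKM with Monosiga Yap-TBD, against 24.4, 23.9 and 28.1 FPKM in the control (log2 difference -0.89 ± 0.14 (SE), limma adjusted p = 0.000303). Both genes had every Monosiga Yap-TBD library below every control library. The list of regulators of the G1 to S transition and of cell-cycle exit also holds stg, although stg acts at mitosis. Of its 14 tested members, 2 rose (CycE and E2f) and 2 fell (rap and stg), with 5 rises and 4 falls with array weights. The main counts were 14.3% each way, beside 12.6% and 12.0% of all genes.

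Growth genes moved in groups. Of 29 tested ribosome biogenesis genes, 17 rose and 0 fell (median log2 difference 0.62), with 11 rising when control replicate 2 was left out. Nop5, a core protein of the box C/D particles that modify ribosomal RNA, stood at 177, 188 and 190.5 FPKM with Monosiga Yap-TBD, against 113, 99.0 and 119 FPKM in the control (nop5; limma adjusted p = 0.00389). Surf6, a nucleolar protein gene, stood at 31.4, 37.7 and 32.7 FPKM with Monosiga Yap-TBD, against 16.6, 13.3 and 14.8 FPKM in the control (limma adjusted p = 0.0012). Pitchoune (pit), a DEAD-box helicase gene of the nucleolus, stood at 53.5, 50.8 and 54.1 FPKM with Monosiga Yap-TBD, against 28.7, 21.8 and 28.7 FPKM in the control (limma adjusted p = 0.00454). For these 3 genes the groups did not overlap. Of the cytosolic ribosomal protein genes, 0 of 83 tested rose and 3 fell, with a median log2 difference of -0.12. The falls were 9 with only the 2 groups in the fit and 26 with array weights. The difference between the lists was not tested. RpL40 stood at 3545, 3466 and 3558 FPKM with Monosiga Yap-TBD, against 4889.6, 5534 and 4603 FPKM in the control (limma adjusted p = 0.00276). RpS5b, a second gene for the S5 protein, stood at 4.81, 4.53 and 4.39 FPKM with Monosiga Yap-TBD, against 21.4, 29.2 and 16.2 FPKM in the control (limma adjusted p = 4.95e-06). How reads were split between the S5 genes is uncertain.

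Mitochondrial ribosomal protein genes rose in part, with 32 of 71 rising, 0 falling and a median log2 difference of 0.56. That count was 11 without Monosiga Yap-TBD replicate 2 and 14 without control replicate 3, and 59 with array weights. Of those named by the rule, mRpS35 stood at 32.5, 45.0 and 32.2 FPKM in the Monosiga Yap-TBD libraries, against 14.5, 17.8 and 12.3 FPKM in the control libraries (limma adjusted p = 0.00475). MRpL54 stood at 34.3, 54.8 and 46.2 FPKM with Monosiga Yap-TBD, against 19.4, 21.2 and 16.6 FPKM in the control (mRpL54; limma adjusted p = 0.00175). Monosiga Yap-TBD replicate 2 was the highest and control replicate 3 the lowest library for mRpL54 and mRpS35 alike. Of 29 tested proteasome subunit genes, 13 rose and 2 fell. The rises were 8 without Monosiga Yap-TBD replicate 2 or control replicate 3, and the falls 1 without replicate 1 of either group. The core subunit gene Prosbeta7 stood at 274, 303 and 283 FPKM with Monosiga Yap-TBD, against 205, 207 and 171 FPKM in the control (limma adjusted p = 0.000533). Of 23 Myc and insulin pathway genes 4 rose and 0 fell, with 2 rises without Monosiga Yap-TBD replicate 1 or control replicate 1 or 2, and with 9 rises and 5 falls with array weights. Foxo, the transcription factor that insulin signalling restrains, stood at 25.7, 24.3 and 30.6 FPKM with Monosiga Yap-TBD, against 16.4, 16.4 and 15.6 FPKM in the control (limma adjusted p = 0.00695). ImpL2, a secreted protein that binds insulin-like peptides, stood at 1229, 1563 and 1097 FPKM with Monosiga Yap-TBD, against 636, 541 and 454 FPKM in the control (2.38-fold, limma adjusted p = 0.000616).

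**Figure D3:**
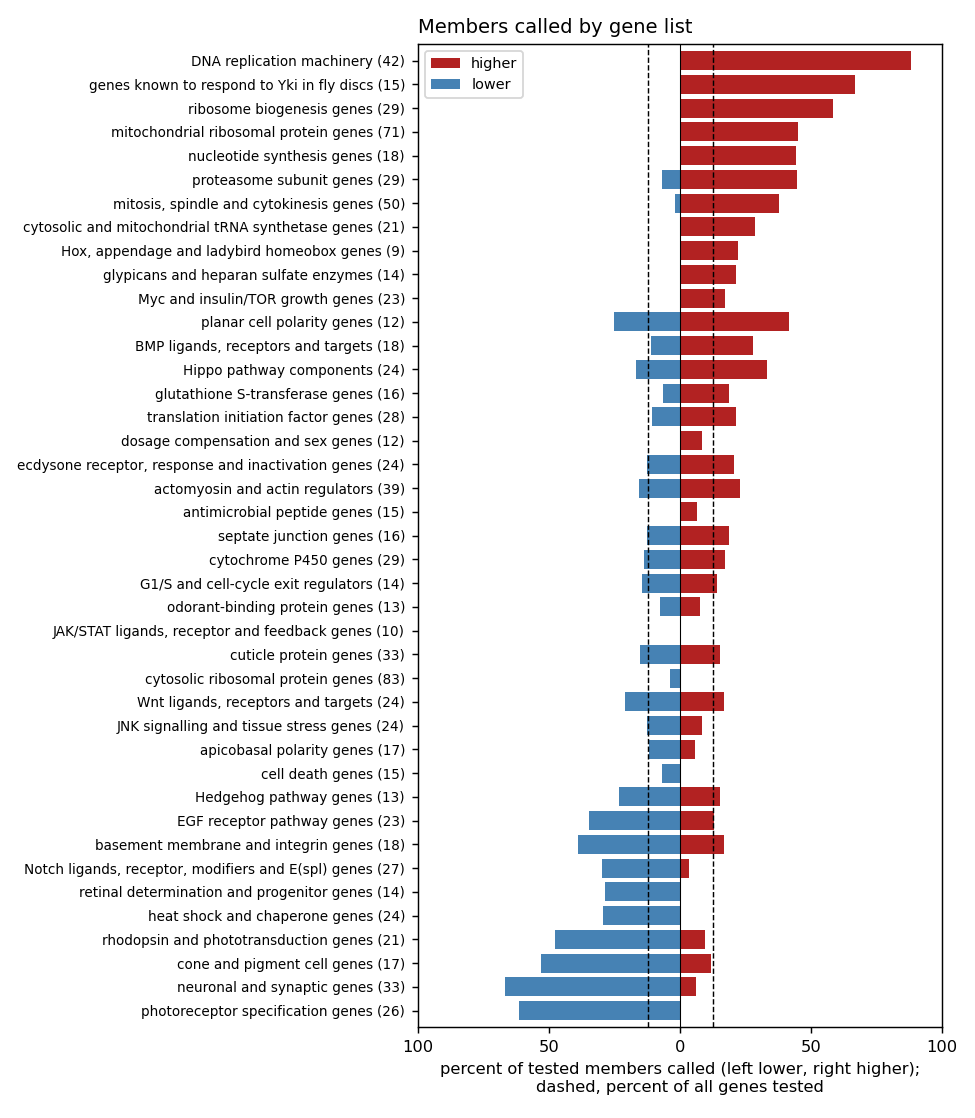
Percent of the tested members of gene lists called higher (red, to the right) or lower (blue, to the left) with Monosiga Yap-TBD, with the number tested in brackets and lists sorted by the difference. The lists of tissue and eye region markers are not shown. Dashed lines mark the 12.6% of all genes called higher and the 12.0% called lower. Of the lists shown, DNA replication genes stand at the top and photoreceptor specification genes at the bottom.

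Within signalling pathways, some genes rose and others fell. Over all genes tested 12.6% were called higher and 12.0% lower. Several lists were not far from these shares, with 16.7% and 20.8% for Wnt, 15.4% and 23.1% for Hedgehog, and 8.33% and 12.5% for JNK. A difference of the lists from these shares was not tested. In the EGF receptor pathway 3 of 23 tested genes rose and 8 fell. Vein rose as described, while rho and ru, which encode rhomboid proteases that release other EGF ligands, fell. Rhomboid (rho) stood at 11.03, 11.2 and 14.8 FPKM in the Monosiga Yap-TBD libraries, against 38.1, 31.9 and 53.02 FPKM in the control libraries (limma adjusted p = 2.09e-05). Roughoid (ru) stood at 20.1, 25.3 and 25.2 FPKM with Monosiga Yap-TBD, against 140.0, 113 and 170.4 FPKM in the control (16.7% of control, limma adjusted p = 1.92e-06). The Ets factor gene pnt stood at 28.1, 21.0 and 29.5 FPKM with Monosiga Yap-TBD, against 51.4, 50.8 and 77.6 FPKM in the control (limma adjusted p = 0.000773). The feedback inhibitor gene kek1 stood at 50.4, 46.5 and 50.1 FPKM with Monosiga Yap-TBD, against 83.1, 81.3 and 101 FPKM in the control (limma adjusted p = 0.000442). Gap1, a Ras GTPase-activating protein gene, stood at 40.1, 35.1 and 39.7 FPKM with Monosiga Yap-TBD, against 62.5, 54.4 and 72.5 FPKM in the control (limma adjusted p = 0.00207). In all of these genes the groups were apart.

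In the BMP pathway 5 of 18 tested genes rose and 2 fell, with 1 fall without Monosiga Yap-TBD replicate 2 or control replicate 3. The ligand gene decapentaplegic (dpp; 2L 2428454 to 2459609) stood at 27.5, 27.3 and 29.5 FPKM in the Monosiga Yap-TBD libraries, against 7.23, 7.05 and 5.59 FPKM in the control libraries (log2 difference 1.94 ± 0.15 (SE), limma adjusted p = 8.01e-07). Its target Dad, an inhibitory Smad, stood at 65.3, 57.1 and 67.6 FPKM with Monosiga Yap-TBD, against 39.1, 40.0 and 40.7 FPKM in the control (limma adjusted p = 0.000389). Genes of secreted BMP-binding proteins also rose. Short gastrulation (sog; X 15498603 to 15520573), the fly chordin, stood at 144, 147 and 145 FPKM in the Monosiga Yap-TBD libraries, against 20.2, 14.9 and 16.6 FPKM in the control libraries (8.41-fold, limma adjusted p = 5.69e-08). Crossveinless 2 (cv-2) stood at 39.0, 29.6 and 40.6 FPKM with Monosiga Yap-TBD, against 9.08, 13.1 and 15.1 FPKM in the control (limma adjusted p = 0.00258). The 3 Monosiga Yap-TBD libraries of sog were nearly equal to each other. Magu, a secreted regulator of Dpp range, fell to 40.0, 49.6 and 44.2 FPKM with Monosiga Yap-TBD, against 69.6, 65.8 and 73.5 FPKM in the control (magu; limma adjusted p = 0.00908).

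Of 13 Hedgehog pathway genes 2 rose (1 without control replicate 2, 5 with array weights) and 3 fell. Brother of ihog (boi), a co-receptor, stood at 111, 101 and 112 FPKM with Monosiga Yap-TBD, against 49.8, 51.6 and 51.8 FPKM in the control (2.11-fold, limma adjusted p = 2.42e-05). Roadkill (rdx), an adaptor that targets the factor Ci for degradation and is itself a Hedgehog target, stood at 41.1, 32.9 and 50.7 FPKM with Monosiga Yap-TBD, against 89.4, 84.6 and 124 FPKM in the control (limma adjusted p = 0.000171). The secreted factor gene shf, needed for the spread of Hedgehog, stood at 39.7, 42.0 and 39.9 FPKM with Monosiga Yap-TBD, against 60.2, 56.2 and 65.2 FPKM in the control (limma adjusted p = 0.00252). The genes of the receptor ptc and the transducer smo did not pass the test, with log2 differences of 0.43 ± 0.23 and 0.16 ± 0.23 (SE; limma adjusted p = 0.211 and 0.677). Of 24 Wnt pathway genes 4 rose and 5 fell. The rises were 2 without replicate 1 of either group, with no filter or with only the 2 groups in the fit, and 1 without Monosiga Yap-TBD replicate 2 or control replicate 3, and the falls were 2 without any 1 of these 4 libraries. The receptor gene fz2 stood at 136, 122 and 135 FPKM with Monosiga Yap-TBD, against 90.0, 81.4 and 83.6 FPKM in the control (limma adjusted p = 0.00072). The ligand gene Wnt2 averaged 2.43 ± 1.48 FPKM with Monosiga Yap-TBD and 9.25 ± 1.34 FPKM in the control (SD, n = 3 each; limma adjusted p = 0.000351). The libraries of boi, rdx, shf, fz2 and Wnt2 were apart between the groups.

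Of 27 tested Notch pathway genes, 1 rose and 8 fell. The rise was lost when Monosiga Yap-TBD replicate 1 or 3 or control replicate 2 was left out, and array weights gave 4 rises. The count of falls was 4 without Monosiga Yap-TBD replicate 1 or replicate 2, 5 without control replicate 1 or 2, and 3 without control replicate 3. Neuralized (neur), the ubiquitin ligase that activates Delta, stood at 12.9, 12.1 and 15.1 FPKM in the Monosiga Yap-TBD libraries, against 40.5, 33.9 and 41.5 FPKM in the control libraries (limma adjusted p = 2.1e-05). HLHmdelta, a target of Notch in the Enhancer of split complex, stood at 21.2, 15.2 and 22.8 FPKM with Monosiga Yap-TBD, against 36.8, 49.7 and 56.1 FPKM in the control (limma adjusted p = 0.00195). Of 10 JAK/STAT genes limma called 0 (3 higher and 1 lower with array weights), and 2 had an unadjusted p under 0.05. Of 24 tested JNK and stress genes, 2 rose and 3 fell. The rises were 4 with the filter over the 6 libraries, 6 with only the 2 groups in the fit and 7 with array weights. The TNF ligand gene eiger (egr) fell, at 9.48, 7.60 and 11.2 FPKM with Monosiga Yap-TBD, against 33.1, 31.5 and 32.4 FPKM in the control (limma adjusted p = 1.84e-05). Traf4, an adaptor in the same cascade, fell as well, at 22.3, 12.6 and 17.7 FPKM with Monosiga Yap-TBD, against 50.7, 55.3 and 71.2 FPKM in the control (limma adjusted p = 7.83e-05). Of 15 cell death genes the Bcl-2 family gene Buffy was the 1 called (3 falls with array weights), at 3.34, 3.61 and 3.24 FPKM with Monosiga Yap-TBD, against 7.30, 8.86 and 7.20 FPKM in the control (limma adjusted p = 0.00406). The death activator genes rpr and W (hid) did not pass the test (log2 differences -0.27 ± 0.31 and -0.36 ± 0.20 (SE), limma adjusted p = 0.58 and 0.205).

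Genes that specify eye cells fell with Monosiga Yap-TBD. Of 26 tested photoreceptor specification genes, 0 rose and 16 fell, with a median log2 difference of -1.24, beside 12.0% called lower and a median of 0.01 over all genes. Glass (gl; 3R 14193649 to 14198460), the zinc finger factor that photoreceptors need and whose binding sites make up the GMR element of the driver, stood at 30.1, 29.7 and 24.5 FPKM in the Monosiga Yap-TBD libraries, against 115, 95.2 and 128 FPKM in the control libraries (log2 difference -1.97 ± 0.22 (SE), limma adjusted p = 1.63e-05). Sevenless (sev; X 10965474 to 10980332), the receptor tyrosine kinase that specifies the R7 photoreceptor, stood at 8.49, 9.42 and 10.2 FPKM in the Monosiga Yap-TBD libraries, against 128, 101 and 116 FPKM in the control libraries (8.16% of control, limma adjusted p = 9.88e-08). Its ligand gene boss, expressed in R8, stood at 1.32, 1.50 and 0.828 FPKM with Monosiga Yap-TBD, against 7.39, 7.11 and 11.3 FPKM in the control (limma adjusted p = 1.08e-05).

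Genes of the transcription factors of single photoreceptor types fell. Spalt-related (salr), of R3, R4, R7 and R8, stood at 1.47, 2.15 and 1.40 FPKM with Monosiga Yap-TBD, against 29.4, 21.8 and 31.5 FPKM in the control (6.07% of control, limma adjusted p = 1.2e-07). Seven-up (svp), the COUP-TF receptor of R1, R3, R4 and R6, stood at 2.05, 2.99 and 3.27 FPKM with Monosiga Yap-TBD, against 17.2, 13.4 and 20.7 FPKM in the control (limma adjusted p = 1.97e-06). Rough (ro), the homeodomain factor of R2 and R5, stood at 5.08, 4.44 and 7.22 FPKM with Monosiga Yap-TBD, against 18.0, 18.6 and 23.03 FPKM in the control (limma adjusted p = 3.29e-05). The Runx factor gene lozenge (lz), expressed in the cells recruited last, stood at 17.7, 13.9 and 16.0 FPKM with Monosiga Yap-TBD, against 53.9, 43.4 and 53.9 FPKM in the control (limma adjusted p = 2.42e-06). Each of the 4 genes had its lowest control library above its highest Monosiga Yap-TBD library. Onecut, phyl (an adaptor for the degradation of Tramtrack) and run, the R7 and R8 Runx factor gene, were chosen after their values were seen and fell, with log2 differences of -2.06 ± 0.22, -1.54 ± 0.19 and -2.06 ± 0.22 (SE; limma adjusted p = 9.91e-06, 3.73e-05 and 1.24e-05). At the furrow end of the sequence, the proneural gene ato, which founds R8, did not pass the test, with 14.2, 17.6 and 14.9 FPKM with Monosiga Yap-TBD, against 32.5, 22.6 and 20.1 FPKM in the control (log2 difference -0.63 ± 0.27 (SE), limma adjusted p = 0.111).

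Several genes of mature photoreceptors fell as well. Of 21 tested of 33 rhodopsin and phototransduction genes, 2 rose (1 when any 1 of the 6 libraries was left out or with only the 2 groups in the fit, 4 with array weights) and 10 fell. The eye protein kinase C gene inaC stood at 4.40, 4.02 and 3.56 FPKM in the Monosiga Yap-TBD libraries, against 41.9, 39.9 and 49.0 FPKM in the control libraries (9.15% of control, limma adjusted p = 2.24e-08). Chaoptin (chp), a photoreceptor surface protein, stood at 3.44, 2.59 and 3.89 FPKM with Monosiga Yap-TBD, against 36.0, 31.6 and 41.7 FPKM in the control (limma adjusted p = 1.64e-07). The rhodopsin gene Rh5 rose, at 5.05, 7.43 and 7.71 FPKM with Monosiga Yap-TBD, against 1.35, 0.818 and 0.490 FPKM in the control (limma adjusted p = 8.73e-06). It did not differ by the test from its level with Monosiga Yap without the added domain (log2 difference -0.10 ± 0.21 (SE), limma adjusted p = 0.789). Posterior eye markers as a list summed to 113 to 125 FPKM with Monosiga Yap-TBD and 406 to 511 FPKM in the control.

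Of 33 tested neuronal genes 22 fell and 2 rose, with 1 rise without Monosiga Yap-TBD replicate 3 or control replicate 1 (median log2 difference -0.78). The pan-neuronal RNA-binding protein gene elav stood at 15.5, 12.8 and 16.6 FPKM in the Monosiga Yap-TBD libraries, against 47.3, 41.8 and 58.6 FPKM in the control libraries (limma adjusted p = 1.39e-05). The sodium pump subunit gene nrv3 stood at 5.84, 4.72 and 5.45 FPKM with Monosiga Yap-TBD, against 37.0, 33.0 and 55.9 FPKM in the control (limma adjusted p = 5.62e-07). The synaptobrevin gene n-syb of synaptic vesicles stood at 4.57, 4.81 and 4.45 FPKM with Monosiga Yap-TBD, against 25.7, 19.4 and 31.9 FPKM in the control (limma adjusted p = 7.2e-06). Neurotactin (Nrt), an adhesion protein of differentiating neurons, fell to 53.8, 50.2 and 57.4 FPKM with Monosiga Yap-TBD, against 234, 179 and 301 FPKM in the control (limma adjusted p = 1.03e-06). Scratch (scrt), a Snail-family factor of neurons, stood at 15.6, 14.9 and 14.4 FPKM with Monosiga Yap-TBD, against 61.5, 52.4 and 104 FPKM in the control (limma adjusted p = 3.69e-05). The katanin-like gene kat-60L1 stood at 1.61, 1.52 and 2.58 FPKM with Monosiga Yap-TBD, against 26.1, 24.4 and 29.6 FPKM in the control (limma adjusted p = 6.88e-08). In these genes too the groups did not overlap. Syt1, Appl and jeb, chosen after their values were seen, encode synaptotagmin, the fly amyloid precursor protein homolog and a ligand of the kinase Alk, and fell, with log2 differences of -1.77 ± 0.18, -1.90 ± 0.22 and -1.90 ± 0.22 (SE; limma adjusted p = 7.75e-06, 2.15e-05 and 2.57e-05).

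Cone and pigment cell genes fell in 9 of 17 tested cases and rose in 2. Shaven (sv), the Pax2 factor of cone cells, stood at 0.763, 0.394 and 0.830 FPKM in the Monosiga Yap-TBD libraries, against 14.01, 18.6 and 14.2 FPKM in the control libraries (4.25% of control, limma adjusted p = 4.8e-08). Immunoglobulin-family adhesion genes that sort pigment cells around the ommatidia fell. The gene hbs fell to 19.7, 18.1 and 23.01 FPKM with Monosiga Yap-TBD, against 61.1, 51.9 and 68.5 FPKM in the control (limma adjusted p = 1.1e-06). Kirre stood at 6.84, 4.43 and 8.38 FPKM with Monosiga Yap-TBD, against 22.1, 23.4 and 25.1 FPKM in the control (kirre; limma adjusted p = 6.06e-05). The gene rst, which overlaps it, stood at 58.6, 41.5 and 59.1 FPKM with Monosiga Yap-TBD, against 130.1, 103 and 136 FPKM in the control (limma adjusted p = 0.00022). The pigment granule Rab gene ltd stood at 4.22, 4.32 and 4.48 FPKM with Monosiga Yap-TBD, against 36.3, 33.6 and 35.2 FPKM in the control (limma adjusted p = 5.54e-08). The RhoGAP gene cv-c rose, at 61.0, 65.5 and 87.4 FPKM with Monosiga Yap-TBD, against 24.1, 19.7 and 22.0 FPKM in the control (limma adjusted p = 0.000291).

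Of 14 tested retinal determination genes, 4 fell and 0 rose, with a median log2 difference of -0.15. The phosphatase and coactivator gene eya stood at 83.3, 69.4 and 91.5 FPKM in the Monosiga Yap-TBD libraries, against 153, 133 and 179 FPKM in the control libraries (limma adjusted p = 0.00101). Its homeodomain partner sine oculis (so) stood at 60.2, 41.4 and 61.9 FPKM with Monosiga Yap-TBD, against 92.7, 91.0 and 111 FPKM in the control (limma adjusted p = 0.00281). The related genes dan and danr fell to 42.4% and 45.3% of the control mean (limma adjusted p = 2.15e-05 and 0.00021). Eyeless (ey) and homothorax (hth), which mark the progenitor cells ahead of the furrow, did not pass the test. Log2 differences were -0.15 ± 0.16 (SE) for ey and 0.35 ± 0.20 for hth, and the libraries overlapped (limma adjusted p = 0.563 and 0.227). Of 8 anterior eye markers 1 was called (0 with no filter, 3 with array weights), and their summed level was 545 to 578 FPKM with Monosiga Yap-TBD and 513 to 524 FPKM in the control. That gene was hairy (h), chosen after its values were seen, at 34.9, 27.4 and 27.6 FPKM with Monosiga Yap-TBD, against 14.8, 13.9 and 18.8 FPKM in the control (limma adjusted p = 0.0352). Its call ended without any 1 of the 3 Monosiga Yap-TBD libraries or control replicate 1 or 2, with an adjusted p up to 0.12 in limma.

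**Figure D4:**
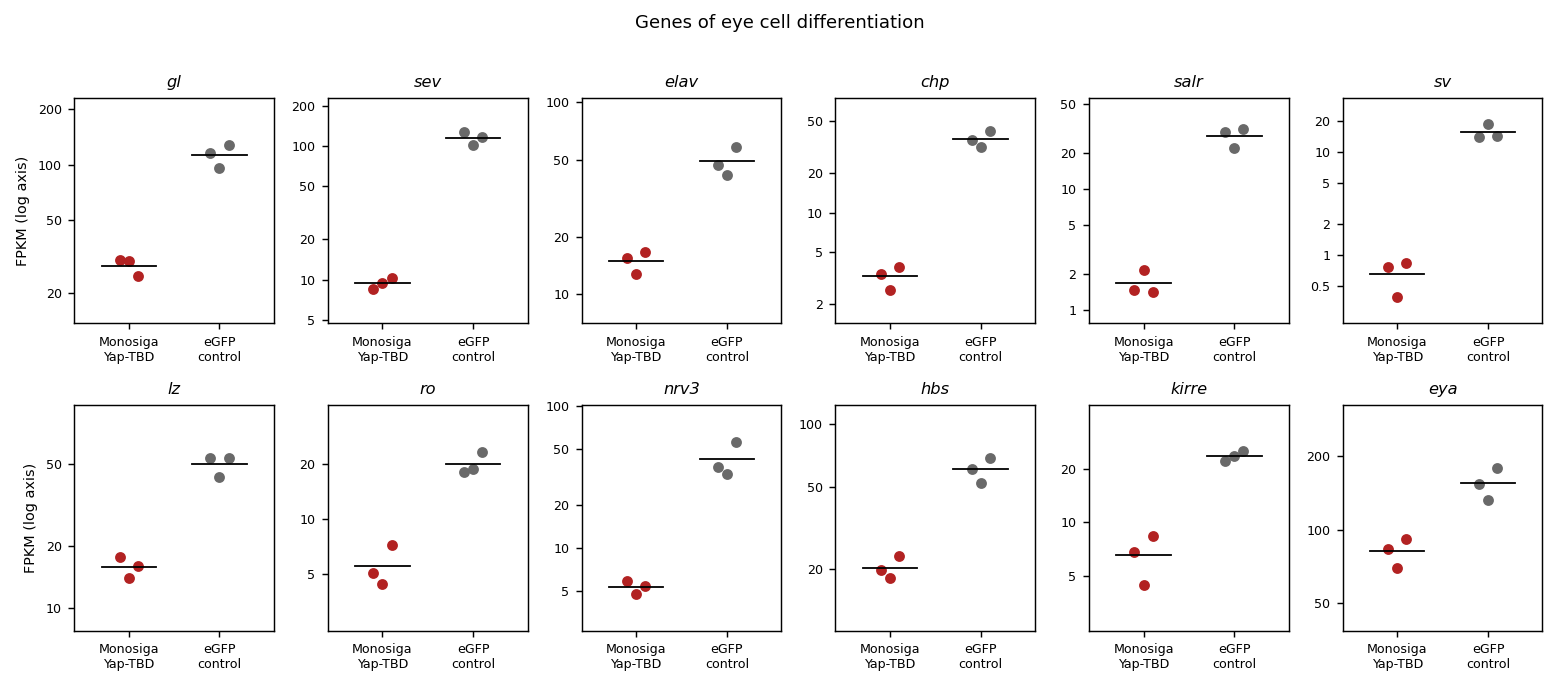
FPKM of 12 genes of eye cell specification and differentiation on log axes in the 3 Monosiga Yap-TBD libraries (red, left) and the 3 eGFP control libraries (grey, right); bars are means. In each panel the red points lie below the grey points without overlap, by the least at eya and by the most at sv and salr.

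Matrix and cytoskeleton genes changed in both directions. Of 18 tested basement membrane and integrin genes, 3 rose and 7 fell. The metalloprotease inhibitor gene Timp stood at 74.5, 109 and 118 FPKM in the Monosiga Yap-TBD libraries, against 11.2, 11.4 and 18.7 FPKM in the control libraries (7.32-fold, limma adjusted p = 1.22e-05). The metalloprotease gene Mmp2 stood at 140.4, 107 and 208 FPKM with Monosiga Yap-TBD, against 386, 395 and 549 FPKM in the control (limma adjusted p = 7.72e-05). The collagen-binding protein gene BM-40-SPARC fell to 22.1, 24.8 and 26.3 FPKM with Monosiga Yap-TBD, against 85.9, 80.6 and 88.2 FPKM in the control (limma adjusted p = 1.12e-05). Mmp2 and BM-40-SPARC are also on the hemocyte list, and Mmp2 alone makes up most of the summed level of that list given above. Of the hemocyte list 4 of 15 tested fell and 0 rose (2 falls without Monosiga Yap-TBD replicate 1 or control replicate 2 or with no filter, 8 with only the 2 groups in the fit and 11 with array weights). The defining hemocyte genes Hml and Pxn were low in both groups and did not pass the test. Hml stood at 2.45, 1.04 and 3.91 FPKM with Monosiga Yap-TBD, against 3.65, 8.45 and 6.95 FPKM in the control (limma adjusted p = 0.117). Pxn stood at 5.97, 6.56 and 10.2 FPKM with Monosiga Yap-TBD, against 11.8, 18.6 and 14.9 FPKM in the control (limma adjusted p = 0.0938). Array weights called both lower, and Pxn was also called lower with only the 2 groups in the fit. The part of hemocytes in these falls was not tested.

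Of the integrin alpha subunit genes named by the rule, some rose and 1 fell. The subunit gene scb stood at 113, 114 and 104.7 FPKM with Monosiga Yap-TBD, against 66.3, 73.7 and 58.7 FPKM in the control (limma adjusted p = 0.00934). The gene mew rose by 0.50 ± 0.11 (SE) on the log2 scale (limma adjusted p = 0.00552). Inflated (if) fell to 21.5, 19.8 and 25.3 FPKM with Monosiga Yap-TBD, against 43.9, 38.9 and 55.3 FPKM in the control (if; limma adjusted p = 0.000916). Among actomyosin genes, 9 of 39 tested rose and 6 fell, with 3 falls without Monosiga Yap-TBD replicate 2 or control replicate 3 and 18 rises with array weights. The main counts were 23.1% and 15.4%, beside 12.6% and 12.0% of all genes. Cheerio (cher; 3R 12917257 to 12944804), the filamin that cross-links actin, stood at 227, 190.0 and 185 FPKM in the Monosiga Yap-TBD libraries, against 28.4, 29.7 and 30.2 FPKM in the control libraries (6.82-fold, limma adjusted p = 5.54e-08). Zipper (zip), the heavy chain of non-muscle myosin II, stood at 386, 336 and 366 FPKM with Monosiga Yap-TBD, against 183, 167.5 and 203 FPKM in the control (limma adjusted p = 2.82e-05). The tropomyosin gene Tm1 stood at 627, 528 and 565 FPKM with Monosiga Yap-TBD, against 273, 246 and 331 FPKM in the control (limma adjusted p = 3.33e-05). The GTPase gene Rho1 rose by 0.67 ± 0.10 (SE) on the log2 scale (limma adjusted p = 0.000221). The formin gene Fhos and the fascin gene sn, whose product bundles actin in bristles, fell, with log2 differences of -1.43 ± 0.23 and -0.54 ± 0.10 (SE; limma adjusted p = 0.000347 and 0.00112). For cher, zip, Tm1, scb and Timp each Monosiga Yap-TBD library lay above all control libraries. Thrombospondin (Tsp), a matrix protein of muscle attachment sites, stood at 60.2, 57.1 and 52.8 FPKM with Monosiga Yap-TBD, against 4.25, 4.65 and 2.81 FPKM in the control (limma adjusted p = 3.59e-06).

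Of 24 tested heat shock and chaperone genes 7 fell and 0 rose (1 rise without control replicate 1, 2 with only the 2 groups in the fit, and 3 with rescaling by median ratios or with array weights), with a median log2 difference of -0.42. Hsp23, a small heat shock protein gene, stood at 1272, 1271 and 782 FPKM with Monosiga Yap-TBD, against 2858, 2651 and 2442 FPKM in the control (limma adjusted p = 0.00337). The Hsp40 gene DnaJ-1 stood at 83.3, 70.1 and 72.9 FPKM with Monosiga Yap-TBD, against 239.9, 230.3 and 222 FPKM in the control (limma adjusted p = 0.000524). Of 16 tested glutathione S-transferase genes 3 rose and 1 fell (5 rises with only the 2 groups in the fit or with array weights, 3 falls with array weights), and GstD1 and GstD3 of the D cluster were among the rises. GstD1 stood at 1626, 1846 and 1323 FPKM with Monosiga Yap-TBD, against 807, 806 and 584 FPKM in the control (limma adjusted p = 0.000192). GstD3 averaged 199 ± 7.84 FPKM with Monosiga Yap-TBD and 98.0 ± 14.2 FPKM in the control (SD, n = 3 each; limma adjusted p = 0.000115). GstS1, of another class, fell to 214, 212 and 221 FPKM with Monosiga Yap-TBD, against 376, 349 and 409.7 FPKM in the control (limma adjusted p = 1.48e-05). The D cluster genes are close in sequence, so the split of reads among them is uncertain. Glial genes fell in 6 of 15 tested cases (3 without Monosiga Yap-TBD replicate 3). Anachronism (ana), a secreted glial glycoprotein, stood at 0.458, 0.748 and 0.591 FPKM with Monosiga Yap-TBD, against 32.1, 24.2 and 46.3 FPKM in the control (limma adjusted p = 2.53e-08). The glial homeodomain factor gene repo stood at 10.9, 12.97 and 13.1 FPKM with Monosiga Yap-TBD, against 24.4, 20.0 and 29.8 FPKM in the control (limma adjusted p = 0.00386).

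Several of the largest rises were at genes nearly silent in the control. Cyp18a1 (X 18582570 to 18586778), a cytochrome P450 that inactivates the moulting hormone ecdysone, stood at 19.8, 19.1 and 26.2 FPKM in the Monosiga Yap-TBD libraries, against 0.216, 0.284 and 0.280 FPKM in the control libraries (log2 difference 4.16 ± 0.18 (SE), limma adjusted p = 7.94e-09). The cuticle protein gene Cpr97Eb (3R 22915417 to 22916845) stood at 285, 248 and 277 FPKM in the Monosiga Yap-TBD libraries, against 0.335, 1.19 and 1.50 FPKM in the control libraries (limma adjusted p = 1.1e-08). Cpr12A stood at 41.0, 33.3 and 53.9 FPKM with Monosiga Yap-TBD, against 0.429, 0.285 and 0.213 FPKM in the control (limma adjusted p = 2.24e-08). TwdlE, of another cuticle protein family, was expressed in the control as well, at 783, 615 and 596 FPKM with Monosiga Yap-TBD, against 54.4, 49.5 and 39.2 FPKM in the control (13.9-fold, limma adjusted p = 1.76e-06). Of 33 tested of 119 cuticle protein genes, 5 rose and 5 fell (3 falls without Monosiga Yap-TBD replicate 1 or 2, 11 with array weights). Among ecdysone genes, 5 of 24 rose and 3 fell (1 without Monosiga Yap-TBD replicate 1 or control replicate 1 or 2), with 9 rises and 10 falls with array weights. Over all genes 12.6% were called higher and 12.0% lower, beside 15.2% each way for cuticle genes and 20.8% and 12.5% for ecdysone genes. The receptor gene EcR did not pass the test (log2 difference 0.38 ± 0.16 (SE), limma adjusted p = 0.0976), and was called higher without Monosiga Yap-TBD replicate 2 (limma adjusted p = 0.0364) and with array weights (limma adjusted p = 0.00101). ImpL3, the lactate dehydrogenase gene, stood at 37.3, 35.0 and 27.7 FPKM with Monosiga Yap-TBD, against 4.21, 5.54 and 3.29 FPKM in the control (7.67-fold, limma adjusted p = 2.98e-06).

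Several genes better known from other tissues also rose. The Hox gene labial (lab; 3R 2487140 to 2504312), which acts in the head and midgut, stood at 18.2, 16.9 and 17.4 FPKM in the Monosiga Yap-TBD libraries, against 2.77, 2.86 and 2.61 FPKM in the control libraries (limma adjusted p = 7.55e-07). Tdc2, a neuronal tyrosine decarboxylase that makes tyramine, stood at 10.1, 9.96 and 10.5 FPKM with Monosiga Yap-TBD, against 0.205, 0.272 and 0.272 FPKM in the control (limma adjusted p = 4.41e-08). The calcium-binding protein gene Scp2 stood at 10.4, 10.2 and 10.5 FPKM with Monosiga Yap-TBD, against 0.133, 0.176 and 0.0659 FPKM in the control (limma adjusted p = 2.16e-07). For these 3 genes the groups were far apart. The neuropeptide precursor gene Nplp1 stood at 88.5, 82.9 and 74.0 FPKM with Monosiga Yap-TBD, against 4.75, 9.44 and 5.32 FPKM in the control (limma adjusted p = 2.23e-06). Ast-C, another such gene, stood at 12.6, 8.85 and 11.4 FPKM with Monosiga Yap-TBD, against 0, 0.700 and 0 FPKM in the control and was listed at 0 in control replicates 1 and 3 (limma adjusted p = 6.9e-06). Fruitless (fru), best known as a regulator of sex-specific neurons, stood at 15.1, 10.7 and 17.5 FPKM with Monosiga Yap-TBD, against 2.07, 3.76 and 6.82 FPKM in the control (limma adjusted p = 0.00164).

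Monosiga Yap-TBD was also set against the other constructs, by direct contrasts. Against Monosiga Yap, which lacks the added human domain, 2442 genes (26.5%) were called by limma, 1315 (14.3%) higher and 1127 (12.2%) lower with Monosiga Yap-TBD. The comparison shares the 3 Monosiga Yap-TBD libraries with that against the control, so the 2 are not independent. Of the 42 replication genes 38 were higher and 0 lower with Monosiga Yap-TBD, and of the 26 photoreceptor specification genes 17 were lower and 1 higher. The 1 higher call was lost without Monosiga Yap-TBD replicate 1 or 2 or Monosiga Yap replicate 1, or with only the 2 groups in the fit. With array weights 3 were higher. Ex averaged 309 ± 36.2 FPKM with Monosiga Yap-TBD and 97.5 ± 14.2 FPKM with Monosiga Yap (SD, n = 3 each; limma adjusted p = 2.07e-06). Wts averaged 50.6 ± 2.77 FPKM with Monosiga Yap-TBD and 18.2 ± 0.683 FPKM with Monosiga Yap (SD, n = 3 each; limma adjusted p = 6.89e-06). For mus209 the means were 326 ± 19.2 FPKM with Monosiga Yap-TBD and 129.9 ± 24.9 FPKM with Monosiga Yap (SD, n = 3 each; limma adjusted p = 2.84e-06). The photoreceptor genes sev and gl were lower with Monosiga Yap-TBD. Sev averaged 9.38 ± 0.872 FPKM with Monosiga Yap-TBD and 103 ± 28.1 FPKM with Monosiga Yap (sev; SD, n = 3 each; limma adjusted p = 2.07e-07). For gl the means were 28.1 ± 3.10 FPKM with Monosiga Yap-TBD and 101 ± 31.7 FPKM with Monosiga Yap (SD, n = 3 each; limma adjusted p = 4.71e-05).

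The constructs with an animal Yap protein were set against Monosiga Yap-TBD in the same way. Against Yki S168A 657 genes (7.13%) were called by limma, 312 (3.39%) higher and 345 (3.74%) lower with Monosiga Yap-TBD. Against Trichoplax Yap S81A 582 genes (6.32%) were called, 275 (2.98%) higher and 307 (3.33%) lower. Without Monosiga Yap-TBD replicate 1 the counts were 416 and 346, without its replicate 2 they were 408 and 348, and without Yki S168A replicate 2 the first was 364. Of the 15 Yki response genes, 3 were higher and 3 lower than with Yki S168A, beside these shares of all genes. Against Trichoplax Yap S81A, 3 were higher and 3 lower as well. The higher counts were 5 and 6 with array weights. Of the 42 replication genes, 2 were higher and 0 lower than with Yki S168A, and 0 were called against Trichoplax Yap S81A. The 2 became 0 to 2 without single libraries, 5 with rescaling by median ratios and 10 with array weights. Ex, CycE and mus209 did not pass these tests. For ex the log2 difference was 0.08 ± 0.15 from Yki S168A and 0.20 ± 0.15 from Trichoplax Yap S81A (SE; limma adjusted p = 0.817 and 0.551). For CycE it was 0.17 ± 0.18 and -0.16 ± 0.18 (SE; limma adjusted p = 0.674 and 0.735), and for mus209 it was 0.10 ± 0.12 and -0.07 ± 0.12 (SE; limma adjusted p = 0.718 and 0.838). With array weights ex passed both tests (limma adjusted p = 0.0259 and 0.00813). A p that misses the threshold does not show that the constructs act alike.

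Other Yki response genes did differ. Vein stood at 19.4, 19.4 and 16.5 FPKM with Monosiga Yap-TBD, against 4.57, 4.88 and 4.40 FPKM with Yki S168A and 5.25, 5.07 and 10.3 FPKM with Trichoplax Yap S81A (vn; limma adjusted p = 0.000146 and 0.00156). The gene fj was higher with Monosiga Yap-TBD too, by 1.17 ± 0.12 and 0.73 ± 0.12 (SE) on the log2 scale (limma adjusted p = 3.31e-05 and 0.00178). Wingless went the other way, at 11.2, 17.1 and 7.92 FPKM with Monosiga Yap-TBD, against 67.5, 39.5 and 93.3 FPKM with Yki S168A and 107, 79.3 and 176 FPKM with Trichoplax Yap S81A (wg; limma adjusted p = 0.00116 and 9.87e-05). The caspase inhibitor gene th was also lower with Monosiga Yap-TBD, at 326 ± 4.63 FPKM, than with Yki S168A at 444 ± 18.0 FPKM and with Trichoplax Yap S81A at 431 ± 21.0 FPKM (SD, n = 3 each; limma adjusted p = 0.00208 and 0.00473). For vn, wg and th the libraries of Monosiga Yap-TBD did not overlap those of either construct.

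A further set was higher with Monosiga Yap-TBD than with each other construct, each by a test of its own. Cyp18a1 averaged 21.7 ± 3.92 FPKM with Monosiga Yap-TBD, against 0.202 ± 0.0840 FPKM with Monosiga Yap, 0.235 ± 0.134 FPKM with Yki S168A and 0.254 ± 0.00385 FPKM with Trichoplax Yap S81A (SD, n = 3 each; limma adjusted p = 7.5e-09, 1.68e-08 and 1.84e-08). Labial averaged 17.5 ± 0.695 FPKM with Monosiga Yap-TBD, against 3.24 ± 0.907 FPKM with Monosiga Yap, 3.46 ± 0.793 FPKM with Yki S168A and 3.37 ± 0.284 FPKM with Trichoplax Yap S81A (lab; SD, n = 3 each; limma adjusted p = 1.48e-06, 8.18e-06 and 8.39e-06). Cpr12A averaged 42.8 ± 10.4 FPKM with Monosiga Yap-TBD, against 0.357 ± 0.223 FPKM with Monosiga Yap, 0.582 ± 0.148 FPKM with Yki S168A and 0.891 ± 0.729 FPKM with Trichoplax Yap S81A (SD, n = 3 each; limma adjusted p = 2.81e-08, 8.76e-08 and 1.09e-07). All 3 genes were higher with Monosiga Yap-TBD than with any of the other constructs in each library. Tdc2 averaged 10.2 ± 0.274 FPKM with Monosiga Yap-TBD, against 0.372 ± 0.190 FPKM with Monosiga Yap, 0.235 ± 0.105 FPKM with Yki S168A and 0.183 ± 0.0911 FPKM with Trichoplax Yap S81A (SD, n = 3 each; limma adjusted p = 7.9e-08, 8.76e-08 and 8.19e-08).

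Other genes with a large rise against the control were set against the constructs with an animal Yap protein. For Cpr97Eb only the contrast with Trichoplax Yap S81A is given here. Cpr97Eb stood at 285, 248 and 277 FPKM with Monosiga Yap-TBD, against 34.3, 33.3 and 94.2 FPKM with Trichoplax Yap S81A (limma adjusted p = 0.000396). For sog the log2 difference was 1.56 ± 0.18 from Yki S168A and 2.09 ± 0.18 from Trichoplax Yap S81A (SE; limma adjusted p = 8.35e-05 and 6.92e-06). For cher it was 1.63 ± 0.16 and 1.94 ± 0.16 (SE; limma adjusted p = 2.21e-05 and 5.4e-06), and for Sulf1 it was 1.57 ± 0.20 and 1.30 ± 0.20 (SE; limma adjusted p = 0.000176 and 0.000915). Timp averaged 101 ± 23.1 FPKM with Monosiga Yap-TBD, against 25.5 ± 11.7 FPKM with Yki S168A and 37.6 ± 9.22 FPKM with Trichoplax Yap S81A (SD, n = 3 each; limma adjusted p = 0.000827 and 0.0113). The difference of Timp from Trichoplax Yap S81A lost its call without replicate 2 of either group, with a limma adjusted p of up to 0.0572 over the alternatives. TwdlE did not differ from its level with Yki S168A by the test and was lower than with Trichoplax Yap S81A, with log2 differences of -0.12 ± 0.31 and -1.76 ± 0.31 (SE; limma adjusted p = 0.886 and 0.00359).

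The eye genes kirre, lz and gl were lower with Monosiga Yap-TBD than with each other construct. For nrv3 and retn only the contrasts with Yki S168A and Trichoplax Yap S81A are given here. Kirre stood at 6.84, 4.43 and 8.38 FPKM with Monosiga Yap-TBD, against 21.7, 23.9 and 18.7 FPKM with Monosiga Yap, 26.3, 32.5 and 16.6 FPKM with Yki S168A and 27.8, 28.5 and 24.5 FPKM with Trichoplax Yap S81A (kirre; limma adjusted p = 0.000129, 0.000181 and 9.99e-05). Lozenge averaged 15.8 ± 1.92 FPKM with Monosiga Yap-TBD, against 36.4 ± 3.41 FPKM with Monosiga Yap, 41.9 ± 7.07 FPKM with Yki S168A and 40.0 ± 4.29 FPKM with Trichoplax Yap S81A (lz; SD, n = 3 each; limma adjusted p = 5.11e-05, 4.74e-05 and 7.6e-05). For gl the log2 difference was -1.13 ± 0.22 from Yki S168A and -1.26 ± 0.22 from Trichoplax Yap S81A (SE; limma adjusted p = 0.00508 and 0.00256). For nrv3 it was -1.70 ± 0.21 and -1.41 ± 0.21 (SE; limma adjusted p = 0.000143 and 0.000739), and for retn, the ARID-domain factor gene, -2.30 ± 0.27 and -2.29 ± 0.27 (SE; limma adjusted p = 0.000113 and 0.000121). Sev did not pass the same tests, at 9.38 ± 0.872 FPKM with Monosiga Yap-TBD, 14.5 ± 2.12 FPKM with Yki S168A and 14.97 ± 4.64 FPKM with Trichoplax Yap S81A (sev; SD, n = 3 each; limma adjusted p = 0.153 and 0.157), but passed both with array weights (limma adjusted p = 0.000718 and 0.00197). Of 26 photoreceptor specification genes 7 were lower and 1 higher than with Yki S168A, beside 3.74% and 3.39% of all genes. The count of lower genes was 4 with only the 2 groups in the fit and 16 with array weights, which also gave 3 higher. Against Trichoplax Yap S81A 1 was higher and 5 were lower, beside 2.98% and 3.33%. The count of higher genes was 0 with only the 2 groups in the fit or with array weights. It was also 0 without any 1 of the Monosiga Yap-TBD libraries or Trichoplax Yap S81A replicate 1 or 3. The lower genes were 11 with array weights and 3 without Monosiga Yap-TBD replicate 1 or Trichoplax Yap S81A replicate 2 or 3.

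**Figure D5:**
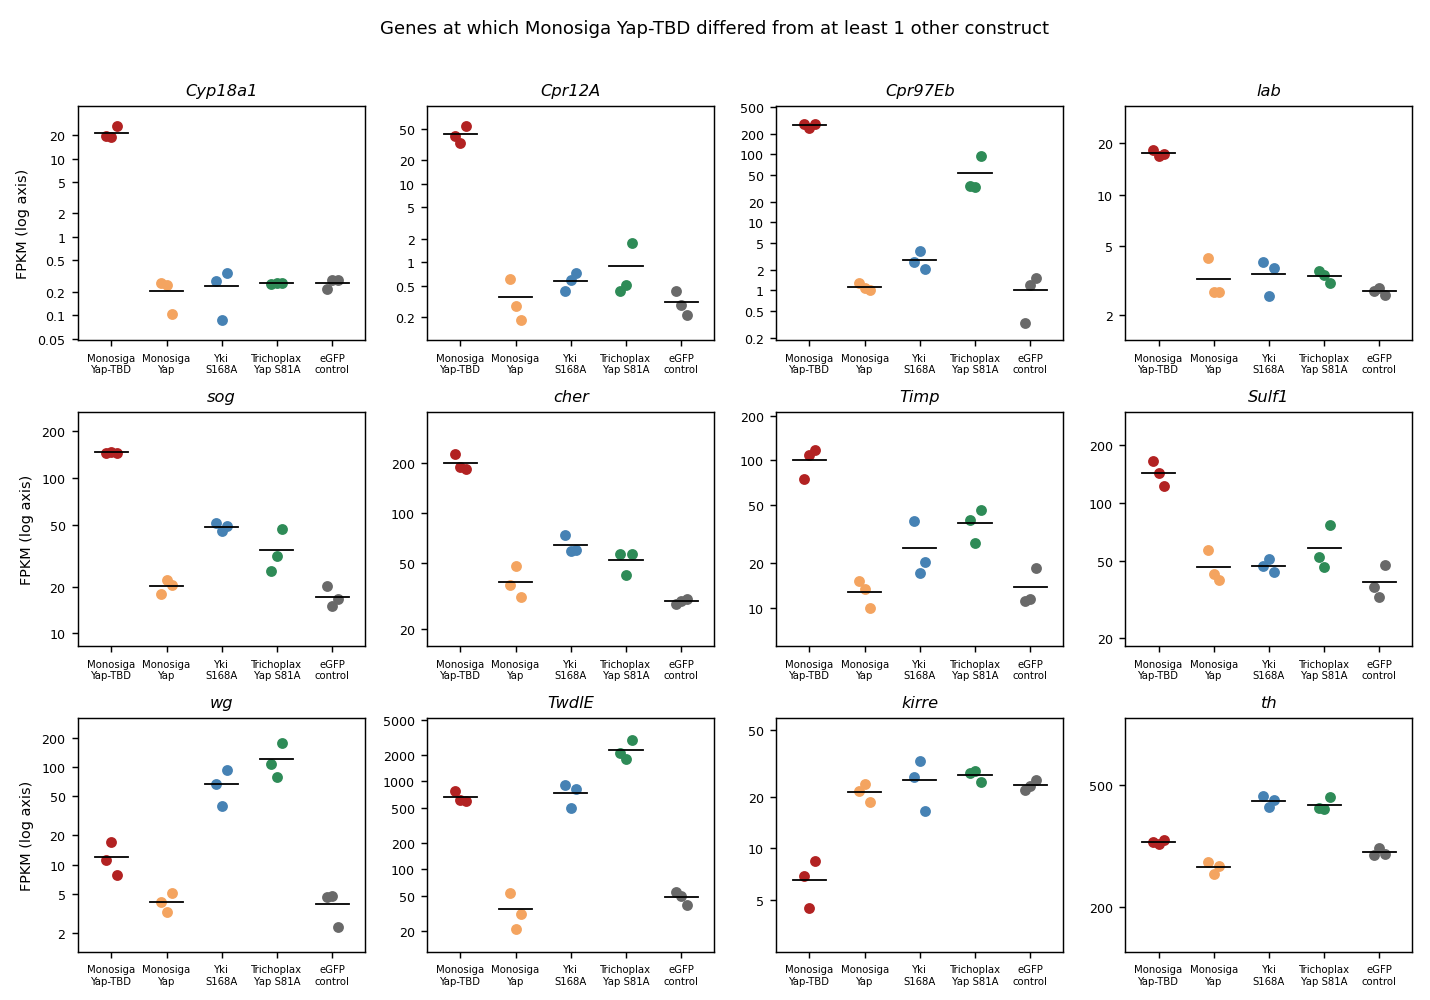
FPKM of 12 genes on log axes in the 3 libraries of each group, from left Monosiga Yap-TBD (red), Monosiga Yap (orange), Yki S168A (blue), Trichoplax Yap S81A (green) and eGFP control (grey); bars are means. Cyp18a1, Cpr12A and lab are high in the red group alone, wg and th are higher in the blue and green groups than in the red one, and kirre is lower in the red group than in the other 4.

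Among overlapping genes on opposite strands, both members were called and changed in opposite directions in 29 pairs. The named genes ex, borr, Traf4 and kat-60L1 were in such pairs, with crq, Ggamma30A, CG17612 and CG2051 as their partners. Log2 differences of these partners were -0.81, -1.11, 1.25 and 0.71. Named genes of nucleotide synthesis and replication were in 2 of the 29 pairs. The thymidylate synthase gene Ts (2L 2968293 to 2969620) stood at 41.4, 51.2 and 41.8 FPKM in the Monosiga Yap-TBD libraries, against 0.155, 0.0679 and 0.0383 FPKM in the control libraries (limma adjusted p = 7.94e-09). Rbp9 (2L 2954762 to 2968434), an Elav-family gene whose end overlaps it, stood at 1.04, 1.04 and 1.31 FPKM with Monosiga Yap-TBD, against 15.2, 12.8 and 17.6 FPKM in the control (limma adjusted p = 2.49e-07). The replication gene Mcm10 (2L 21179941 to 21182812) stood at 12.2, 13.1 and 12.6 FPKM in the Monosiga Yap-TBD libraries, against 0.0636, 0.516 and 0.0189 FPKM in the control libraries (limma adjusted p = 6.57e-05). The receptor kinase gene Ret (2L 21182394 to 21198745), chosen after its values were seen, overlaps it and stood at 0.396, 0.271 and 0.487 FPKM with Monosiga Yap-TBD, against 4.13, 2.98 and 3.75 FPKM in the control (limma adjusted p = 0.000681). In both pairs the replication or nucleotide gene was near 0 in the control, where its partner was expressed, and the partner was lower with Monosiga Yap-TBD. The authors' deposited table gives a natural log ratio of 0 for all 4 genes, with p of 1. The same ratio of 0 stands there for the named and called genes sd, pk, app, zip, Tm1, kat-60L1, magu and ImpE3.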

How the data were processed

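RNA with poly(A) tails was sequenced from 15 libraries, of which the 3 Monosiga Yap-TBD and 3 control libraries carry the main comparison. The deposited table gives FPKM per gene, computed by the authors. CASAVA 1.7.0, TopHat 1.0.14, Cufflinks, Cuffdiff 1.0.2 and the build dm3 are named, per the submitters' processing notes. The gene annotation, strand use and any scaling between libraries are not given in the sources used here. A second deposited table of the authors holds natural log ratios, p-values, a mean level on the log2 scale and a score derived from the p-values. Of that table only the ratios and p-values were used, as descriptions.

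FPKM values were tested as log2(FPKM + 1), because they are not counts, with limma 3.58.1 in R 4.3.3. All 5 groups entered 1 fit with a variance trend and robust empirical Bayes moderation, and p-values were adjusted by the Benjamini-Hochberg method over the 9213 genes with at least 1 FPKM in at least 3 libraries. Genes were called at an adjusted p under 0.05. Depth was estimated from the steps between low FPKM values. The members, the gene lists and the tests were chosen with earlier results of these data known. Genes were named by rule as the first 3 tested entries of each list, up to 5 called members of each list in each direction with the largest differences, a mean of at least 5 FPKM in the higher group and no overlap between the groups, and the 15 largest rises and 15 largest falls overall under the same conditions; not all genes under this rule are described. The script was tested on simulated data. Alternatives covered the pseudocount, the filter, the groups in the fit, the scaling, the library weights, the moderation, a replicate block and leaving out single libraries. Sequences were not used here.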

Additional observations from a re-analysis of the deposited data

How the results depend on the processing

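Between 1650 and 2091 genes were called against the control without single libraries, beside 2264 with all. With the replicate number as a block 2148 were called, and the block changed no call of the 170 genes named. The labels do not say that a number marks a shared batch, and deviations of same-numbered Monosiga Yap-TBD and control libraries correlated at -0.0853, -0.0697 and 0.0703, so the block is given here alone. The block moved the falls of cytosolic ribosomal protein genes to 6, beside 3, and the rises of Wnt pathway genes to 2, beside 4. Array weights raised the calls to 4014 against the control, 3460 against Yki S168A and 1746 against Trichoplax Yap S81A, and gave 3439 against Monosiga Yap, so that Yki S168A no longer had fewer calls than Monosiga Yap. They also raised 46 of 100 list counts against the control by over 1.5 times or above 0 and lowered 1. Among counts of 0 given above, they gave 2 photoreceptor specification and 1 retinal determination gene higher, and 1 nucleotide synthesis and 1 ribosome biogenesis gene lower. With only the 2 groups in the fit, 1544 were called against Monosiga Yap, beside 2442. Without single libraries the calls ranged between 1733 and 2809 against Monosiga Yap, 364 and 652 against Yki S168A, and 346 and 473 against Trichoplax Yap S81A. The cause of these shifts was not tested. Of 150 named genes called against the control, 145 kept their call under all 14 alternatives, and the exceptions were wg, dm, h, ImpE2 and ImpE3. Of the 20 named genes that were not called, 10 (ato, CycB3, crb, EcR, Hml, hpo, hth, Mer, Pxn and W) were called with array weights, ato and Pxn also with only the 2 groups in the fit, and EcR also without Monosiga Yap-TBD replicate 2. For CG14059, not called, the log2 difference lay between -0.17 (without Monosiga Yap-TBD replicate 3) and 0.49 without single libraries. Genes near 1 FPKM rest on few fragments, which limits small differences there.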

Other observations

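Among the 9213 genes tested, 1366 pairs overlapped on opposite strands. Both members were called in 84 of them, in the same direction in 55 and in opposite directions in 29, and in 7 of these 29 pairs both log2 differences were larger than 1 in size. Of the 2264 genes called here, the authors' deposited table lists a natural log ratio of exactly 0 for 57, and 36 of these 57 overlap another gene on the opposite strand. Of the 2207 called genes with another value there, 2203 have the same sign in both. Both values come from the same libraries, and only genes called here were counted, so the shared sign is no independent support.

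The ecdysone-inducible genes ImpE2 and ImpE3 were called lower although their libraries overlapped, and were chosen after their values were seen. ImpE2 stood at 940.3, 2012 and 1059 FPKM with Monosiga Yap-TBD, against 4907, 3429 and 1824 FPKM in the control (limma adjusted p = 0.0282). ImpE3 stood at 34.2, 74.9 and 33.4 FPKM with Monosiga Yap-TBD, against 189, 132 and 70.9 FPKM in the control (limma adjusted p = 0.0106). In both genes control replicate 1 was the highest library and Monosiga Yap-TBD replicate 2 the highest of its group. The call of ImpE2 ended without Monosiga Yap-TBD replicate 1 or 3 or control replicate 1 or 2, and both calls ended with only the 2 groups in the fit, with limma adjusted p = 0.12 for ImpE2 and 0.0939 for ImpE3.

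Of 74 tested genes on chromosome 4, 5 rose and 16 (21.6%) fell, beside 12.0% of all genes, with a median log2 difference of -0.23.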
